A study of Mus musculus with 4 samples.

Results

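The BCL2 family decides whether the mitochondrial outer membrane of a cell is opened, the step that commits most vertebrate cells to apoptosis. The 10 genes described here were chosen by symbol from the 24527 gene symbols of a table of read counts in mouse melanoma cells. They are the guardians Bcl2, Bcl2l1 and Mcl1, the pore formers Bax and Bak1, and the BH3-only genes Bcl2l11, Bbc3, Pmaip1, Bid and Bad. All of them were in the table, and 9 of 10 averaged 1 CPM (the share of a library scaled to a common total) or more over the libraries, a level that 12728 genes reached.

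In resting cells the guardian proteins BCL2, BCL-XL (from Bcl2l1) and MCL1 hold the pore formers BAX and BAK in check. BH3-only proteins, named for the one short helix they share with the rest of the family, are made or switched on under stress, block the guardians and in some cases activate the pore formers directly, after which cytochrome c leaves the mitochondria and caspases are activated. Melanoma cells are known for high guardian levels, MCL1 and BCL-XL in particular, and the genes of the BH3-only proteins PUMA (Bbc3) and NOXA (Pmaip1) are known targets of the p53 protein.

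RNA of B16F10 cells, a mouse melanoma line, was sequenced from 4 sources, all with a genotype labelled WT: spheroids formed with NIH/3T3 mouse fibroblasts, a 2D co-culture with the same fibroblasts, a 2D monoculture, and a tumor grown under the skin of 1-year-old female C57BL/6 mice. The library labelled B16-control was taken as the monoculture, the only source that no other label names. Each source had 1 library, so no difference below has a replicate check, no test was made and no p-value is given. Intervals are given at 95% and reflect the counting of reads alone. The methods of the study describe a green fluorescent B16F10 line sorted from the cultures, and the series' design text also calls the tumor cells sorted, whereas the label of the tumor library names snap frozen tumor. The methods give several RNA isolations, but no more than 1 library per source was analysed here, and the labels do not say whether a library pools cultures or animals.

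The libraries held between 118896900 and 150028663 counted reads, and 3 reads, taken as the limit for a gene without a read, equal 0.0185 to 0.0262 CPM depending on the library. All 8 melanocyte markers were found with more than 3 reads in each library. Their summed CPM was 11420 in the spheroid, 15306 in 2D co-culture, 16911 in 2D monoculture and 20122 in the tumor. Single markers differed in direction: Mitf had 70.3 CPM in the spheroid and 708 in the tumor, and Sox10 had 902 and 237. The tumor library stood apart. Its summed CPM of 10 myeloid markers was 1955, against 10.4 to 30.0 in the cultures, that of 6 endothelial markers 244 against 1.23 to 4.55, and that of 5 skeletal muscle markers 4209 against 0.905 to 7.35. Fibroblast markers, 8 genes, summed to 36.5 CPM in the spheroid, 679 in 2D co-culture, 17.6 in 2D monoculture and 2718 in the tumor. Lymphoid markers (8 genes) reached 7.50 CPM in the tumor and at most 0.991 in a culture, neutrophil markers (4 genes) 13.4 and at most 0.119, adipocyte markers (3 genes) 722 and at most 1.19, and keratinocyte markers (3 genes) 1.11 and at most 0.769. Cell mixture therefore moved with every comparison that involves the tumor, and its part in the values of the BCL2 family was not tested. In bulk RNA, fewer cells of a type and less RNA per cell cannot be told apart.

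Across genes, the ratio between libraries also moved with GC content and with transcript length. Spearman's correlation of the log2 ratio with GC content, over 12466 genes, which are not independent replicates, was 0.46 for spheroid against 2D monoculture, 0.52 for spheroid against tumor and -0.38 for tumor against 2D monoculture. With transcript length it was -0.39 for spheroid against 2D monoculture and -0.14 for spheroid against tumor. The BCL2 family spans much of this range: 65.2% GC in the longest transcript of Bbc3, 63.5% in Bax, 57.1% in Bad and in Bak1, 55.9% in Bcl2l1, 51.3% in Bid, 48.7% in Mcl1, 48.0% in Bcl2l11, 46.3% in Bcl2 and 42.1% in Pmaip1. Ratios corrected for both, by taking away the median log2 ratio of genes of like GC content and length, are therefore given beside the uncorrected ones.

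Base composition was also read in the sequences before the start sites of Bbc3, Bcl2 and Bcl2l1. These members had the uncorrected ratios of spheroid to 2D monoculture farthest from 0 in either direction. The correction rests on the GC content of transcripts and not on that of these windows. Each run holds the 250 bases before the most upstream start that RefSeq gives on GRCm38.p6, read 5′ to 3′ on the strand of the gene, and capitals mark the GC box GGGCGG or its reverse complement. The Bbc3 window is chr7:16309333-16309582 on the plus strand, the Bcl2 window chr1:106714291-106714540 on the minus strand, and the Bcl2l1 window chr2:152831729-152831978 on the minus strand.
Bbc3: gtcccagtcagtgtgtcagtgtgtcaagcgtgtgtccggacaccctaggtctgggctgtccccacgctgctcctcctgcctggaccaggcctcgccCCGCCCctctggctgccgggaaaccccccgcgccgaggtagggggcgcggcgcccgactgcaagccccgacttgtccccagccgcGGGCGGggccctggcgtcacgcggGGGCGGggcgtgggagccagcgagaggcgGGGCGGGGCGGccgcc
Bcl2: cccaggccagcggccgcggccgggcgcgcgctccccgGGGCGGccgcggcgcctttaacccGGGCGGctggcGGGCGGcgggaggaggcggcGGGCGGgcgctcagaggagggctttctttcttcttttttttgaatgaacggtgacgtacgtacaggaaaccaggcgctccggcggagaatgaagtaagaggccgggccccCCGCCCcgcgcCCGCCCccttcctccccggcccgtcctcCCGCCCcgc
Bcl2l1: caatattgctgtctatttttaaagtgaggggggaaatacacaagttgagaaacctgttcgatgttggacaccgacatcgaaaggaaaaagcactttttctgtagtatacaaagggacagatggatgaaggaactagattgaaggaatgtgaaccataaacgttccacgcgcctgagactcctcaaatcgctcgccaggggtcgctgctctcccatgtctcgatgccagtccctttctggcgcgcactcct
The Bbc3 window held 5 GC boxes at 76.4% GC and the Bcl2 window 7 GC boxes at 74.8% GC. The Bcl2l1 window had none, at 47.6% GC, below the median of 52.4% over all 32851 windows of that length. A GC box was present in 32.7% of all windows. None of the 3 windows held, on either strand, the E-box CACGTG (in 6.02% of all windows), the M-box TCATGTG (3.25%), the cyclic AMP response element TGACGTCA (1.55%) or the CHOP-ATF4 element TGATGNAA (3.45%), and the motifs do not contain one another. The last GC boxes of the Bbc3 window share 1 base. RefSeq lists 3 starts for Bbc3 and 3 for Bcl2l1, of which only the most upstream was read, and the GENCODE span of Bbc3 begins before that start. A match of letters is a description and not a binding site.

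Among the 9 members that passed the filter, Bbc3 varied most. This gene encodes PUMA, a BH3-only protein that binds every guardian, and lies at chr7:16308393-16318205 (GRCm38, plus strand). Bbc3 had 91.9 CPM (interval 90.3 to 93.5) in the spheroid, 28.9 CPM (27.9 to 29.9) in 2D co-culture, 42.8 CPM (41.7 to 43.9) in 2D monoculture and 5.43 CPM (5.08 to 5.80) in the tumor. The spheroid was highest and the tumor lowest, with a fold of 16.9 between them and of 3.18 between the highest and the lowest culture. On the log2 scale, with nothing added, Bbc3 was 1.10 above the 2D monoculture in the spheroid (interval 1.06 to 1.15) and 1.67 above the 2D co-culture (1.61 to 1.72). The tumor was 2.98 lower than the 2D monoculture (log2 ratio -2.98, interval -3.08 to -2.88). With the correction for GC content and length, on the log2 scale with 1 CPM added, the ratio of spheroid to 2D monoculture was 0.37, that of spheroid to 2D co-culture 1.12, that of tumor to 2D monoculture -2.15 and that of spheroid to tumor 2.48. The order of spheroid above 2D monoculture above tumor was thus kept, while the difference between spheroid and 2D monoculture fell under 2-fold.

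**Figure D1:**
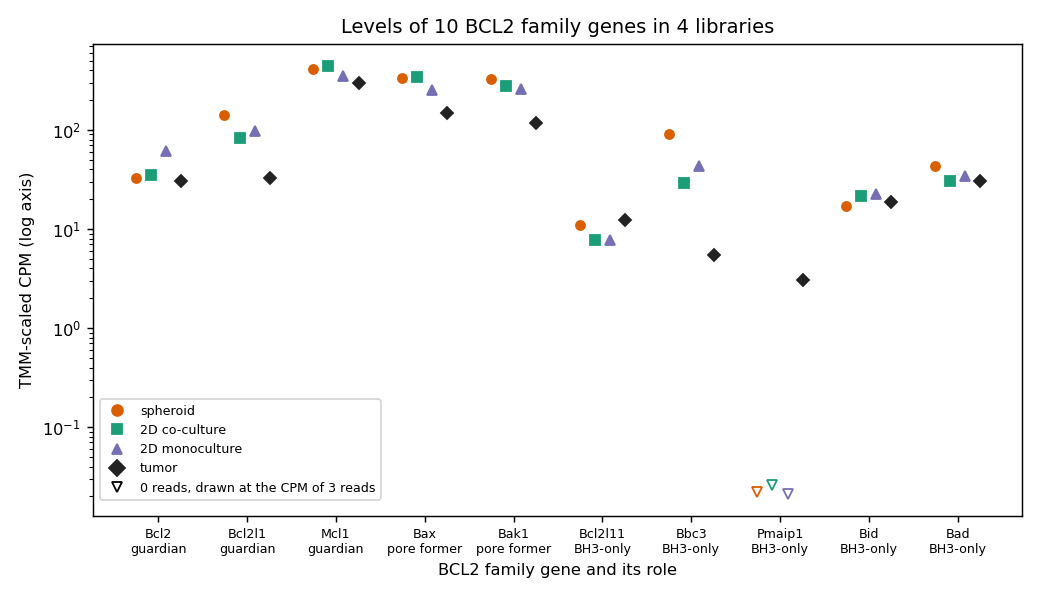
TMM-scaled CPM (log axis) of the 10 BCL2 family genes in the 4 libraries, 1 point per library, with open triangles where a library had 0 reads. Bbc3 spread from 5.43 CPM in the tumor to 91.9 in the spheroid, whereas Mcl1 stayed between 300 and 444 CPM, and Pmaip1 had reads in the tumor alone.

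In uncorrected levels over the 4 libraries, the other transcriptionally controlled BH3-only members, Bcl2l11 and Pmaip1, did not follow Bbc3. Bcl2l11, which encodes BIM, a protein that binds every guardian and activates BAX directly, lies at chr2:128126038-128162547 (plus strand) and was low throughout. Its level was 11.0 CPM in the spheroid, 7.70 in 2D co-culture, 7.83 in 2D monoculture and 12.3 in the tumor. The 2D cultures did not differ beyond counting error, with a log2 ratio of -0.02 (interval -0.15 to 0.11). The tumor and the spheroid lay above both, by log2 ratios to the 2D monoculture of 0.65 (0.54 to 0.75) and 0.49 (0.38 to 0.61), less than 2-fold. After correction, the ratio of tumor to 2D monoculture was 1.02, just past 2-fold. That of spheroid to 2D monoculture was then 0.79, against 0.37 for Bbc3. The corrected ratio of spheroid to 2D co-culture was 0.86, against 1.12 for Bbc3.

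Pmaip1, which encodes NOXA, a BH3-only protein that acts chiefly on MCL1, lies at chr18:66458533-66465565 (plus strand). It had 0 reads in the spheroid, 0 in 2D co-culture, 0 in 2D monoculture and 501 reads, or 3.09 CPM (interval 2.82 to 3.37), in the tumor. With 3 reads put in place of 0, the tumor level was 140-fold that of the spheroid, 118-fold that of 2D co-culture and 147-fold that of 2D monoculture. These folds are not strict bounds. The intervals for 0 reads reach 0.0271, 0.0322 and 0.0259 CPM in the same order, above the CPM of 3 reads. With a mean of 0.771 CPM it did not pass the filter on low values, and the counts of members below leave it out. The nearest genes with 100 or more reads in every library were Lman1, 456 kb before it, with 9126 reads in the spheroid, 12231 in 2D co-culture, 18383 in 2D monoculture and 18579 in the tumor, and Gnal, 623 kb after it, with 361, 226, 303 and 732 reads in the same order. Both were picked by that rule, so their reads in the cultures were given in advance and say nothing about Pmaip1 itself. Whether the Pmaip1 gene is intact in the cultures was not tested. Since the tumor library also held the markers of other cell types given above, which cells the 501 reads came from cannot be told apart.

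Bid and Bad, BH3-only genes whose proteins are controlled mainly after translation, varied little. Bid encodes a protein that caspase-8 cuts to link death receptors to mitochondria, and lies at chr6:120891930-120916853 (minus strand). It had 16.9 CPM in the spheroid, 21.7 in 2D co-culture, 22.4 in 2D monoculture and 18.8 in the tumor. The fold between highest and lowest library was 1.32, the smallest of the 9 members that passed the filter. Bad encodes a sensitizer that growth factor kinases such as AKT hold inactive, and lies at chr19:6941861-6951899 (plus strand). Its level was 43.5 CPM in the spheroid, 30.5 in 2D co-culture, 34.7 in 2D monoculture and 30.7 in the tumor, so that the spheroid was highest and the 2D co-culture and the tumor did not differ beyond counting error (log2 ratio -0.01, interval -0.07 to 0.05). The corrected ratio of spheroid to tumor for Bad had the other sign, -0.54 against 0.49 before correction with 1 CPM added.

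The guardians moved separately from one another. Bcl2, the founding member, at chr1:106538178-106714274 (minus strand), had 33.1 CPM in the spheroid, 35.3 in 2D co-culture, 60.8 in 2D monoculture and 30.5 in the tumor. The monoculture alone was high, with a log2 ratio to it of -0.88 (interval -0.93 to -0.83) for the spheroid, -0.78 (-0.84 to -0.73) for the 2D co-culture and -0.996 (-1.05 to -0.95) for the tumor. With 1 CPM added the last of these was -0.97, just inside 2-fold. The correction turned the ratio of spheroid to 2D monoculture to 0.34 and brought that of the 2D co-culture to -0.12 and that of the tumor to -0.56.

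Bcl2l1, which encodes BCL-XL and lies at chr2:152780668-152831728 (minus strand), showed a different order: 140 CPM in the spheroid, 83.8 in 2D co-culture, 98.1 in 2D monoculture and 32.4 in the tumor. The spheroid was highest and the tumor lowest, 4.32-fold apart, with a log2 ratio of 2.11 (interval 2.07 to 2.16). After correction it was 0.78. Between spheroid and 2D monoculture the log2 ratio was 0.51 (0.48 to 0.55), and -0.20 after correction.

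Mcl1, whose protein turns over within hours, lies at chr3:95658788-95663176 (plus strand) and was the guardian with the highest level per kb in all 4 libraries. It had 414 CPM in the spheroid, 444 in 2D co-culture, 354 in 2D monoculture and 300 in the tumor, a fold of 1.48 from lowest to highest. The tumor was 0.24 below the 2D monoculture on the log2 scale (log2 ratio -0.24, interval -0.26 to -0.22). With 1 CPM added, this difference was all but absent with total count scaling (0.0005) and upper quartile scaling (0.010). It had the other sign with the correction (0.11).

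The pore formers were both lowest in the tumor. Bax, at chr7:45461697-45466898 (minus strand), whose protein moves from the cytosol to the membrane, had 333 CPM in the spheroid, 345 in 2D co-culture, 253 in 2D monoculture and 150 in the tumor. Bak1, at chr17:27019810-27029009 (minus strand), whose protein resides in the membrane, had 327 CPM in the spheroid, 279 in 2D co-culture, 259 in 2D monoculture and 116 in the tumor. Spheroid and 2D co-culture stood in the opposite order in the 2 genes. Between spheroid and tumor the log2 ratio was 1.15 (interval 1.13 to 1.17) for Bax and 1.49 (1.47 to 1.52) for Bak1, and 0.31 and 0.32 after correction. Of the pairs among the 9 members that passed the filter, the profiles of Bax and Bak1 over the 4 libraries were the most alike, with a Euclidean distance of 0.347 between their centred log2 CPM values.

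Parts of several of these genes are shared with other genes, and whether the counting used strand is not given in the sources used here. The exons of Bak1 overlap Ggnbp1 on the opposite strand over 25.5% of their bases, those of Bad overlap Gpr137 on the opposite strand over 20.5%, those of Bid overlap Bcl2l13 on the opposite strand over 17.7%, those of Bax overlap Gm45808 on the same strand over 12.2%, and those of Bcl2 an antisense gene over 6.09%. The share of bases does not limit the share of reads, since Bcl2l13 had 87.9 to 187 CPM against 16.9 to 22.4 for Bid, and the levels of these 5 genes are uncertain by an amount that was not measured. Bcl2l1, Mcl1, Bcl2l11, Bbc3 and Pmaip1 share no exon bases with another annotated gene.

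Levels of different genes were compared per kb of exon, with all annotated exons of a gene merged. That length can exceed the longest transcript, with 4586 against 2568 bases for Bcl2l1 and 2558 against 1533 for Bad. Places, shares and ratios per kb depend on this choice, and another length was not tried. Bax was first in every library, with 211 CPM per kb in the spheroid, 219 in 2D co-culture, 160 in 2D monoculture and 95.2 in the tumor, and Bcl2l11 and Pmaip1 came last in every library, at numbers 9 and 10. Bbc3 changed its place most: it was number 4 in the spheroid (43.2 CPM per kb), number 5 in both 2D cultures and number 8 in the tumor (2.56). Summed over roles, the pore formers made up 61.0% of the CPM per kb of the 10 genes in the spheroid, 64.4% in 2D co-culture, 60.8% in 2D monoculture and 54.3% in the tumor. The guardians made up 27.3%, 29.3%, 29.9% and 37.1% in the same order. The share of BH3-only genes was 11.7%, 6.28%, 9.31% and 8.53%, highest in the spheroid and lowest in 2D co-culture. The tumor thus had the largest guardian share and the smallest sum per kb in each of the 3 roles.

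**Figure D2:**
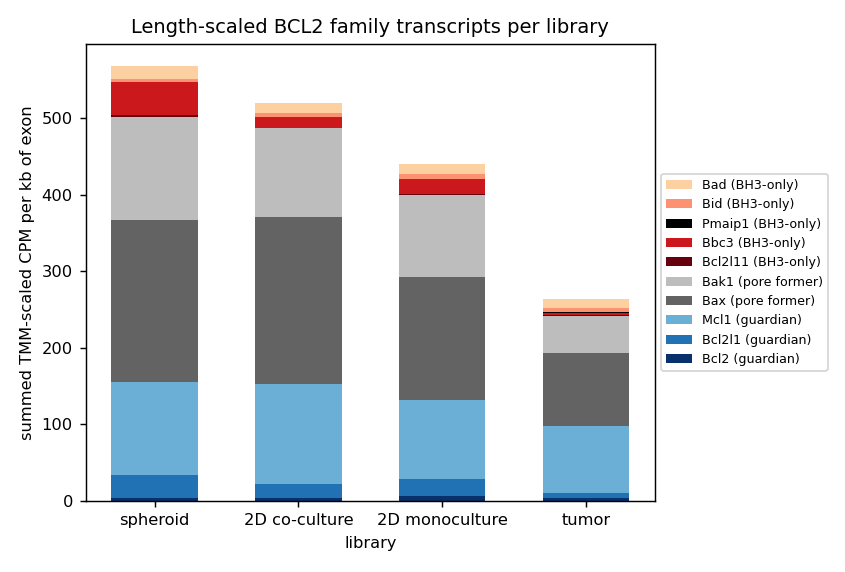
Summed TMM-scaled CPM per kb of exon of the 10 BCL2 family genes in each library, stacked by gene and coloured by role. Bax and Bak1 made up over 54% of each bar, and the red Bbc3 segment ran from 2.56 CPM per kb in the tumor to 43.2 in the spheroid.

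The ratio of activators to guardians is a known regulator of membrane opening, and within a library it needs no scaling, although it is not free of differences in GC content and length. Per kb, Bbc3 stood to Bcl2 at 12.0 in the spheroid, 3.53 in 2D co-culture, 3.04 in 2D monoculture and 0.768 in the tumor. It stood to Mcl1 at 0.357, 0.105, 0.195 and 0.0292 in the same order. The spheroid was highest and the tumor lowest in both. From 2D monoculture to spheroid the log2 ratio of Bbc3 to Bcl2 changed by 1.98, and by 0.03 after the correction for GC content and length, with 1 CPM added. From tumor to spheroid it changed by 3.96, and by 1.39 after correction. The rise of Bbc3 to Bcl2 over the 2D monoculture was thus all but lost with the correction. For Bbc3 to Mcl1 this rise was 0.88, and 0.04 after correction. For Bbc3 to Bcl2l1 it was 0.59, and 0.57 after correction. Bcl2l11 to Bcl2 ran another way, 0.379 in the spheroid, 0.249 in 2D co-culture, 0.147 in 2D monoculture and 0.458 in the tumor. Taking the mean log2 value of Bcl2l11 and Bbc3 against that of Mcl1, Bcl2 and Bcl2l1, with Pmaip1 left out for its 0 reads in the cultures, the balance changed by 0.84 from 2D monoculture to spheroid, by 0.91 from 2D co-culture to spheroid and by 1.06 from tumor to spheroid. After correction these changes were 0.42, 0.81 and 0.53. In the first of these, the corrected change of Bcl2l11 was 0.46 to Mcl1, 0.45 to Bcl2 and 0.99 to Bcl2l1. Before correction, the balance changed by -0.07 from 2D monoculture to 2D co-culture, -0.22 from 2D monoculture to tumor and 0.15 from tumor to 2D co-culture. In the comparison of tumor and 2D monoculture the small mean holds opposite parts, since the log2 ratio of Bbc3 to Mcl1 changed by -2.74 and that of Bcl2l11 to Mcl1 by 0.89.

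To set 3D growth with fibroblasts against 2D culture, the spheroid was compared with each 2D library, counting members past 2-fold with 1 CPM added. Against the 2D monoculture, 1 of 9 members was higher (Bbc3) and 0 were lower. Over all 12728 genes, 11.2% were higher and 17.9% lower, so the members' count was near the background. The median log2 ratio was 0.33 over the members, 0.05 over all genes and -0.20 over the members after correction. Against the 2D co-culture, 1 of 9 was again higher (Bbc3) and 0 lower, beside 9.54% and 8.46% of all genes, with a median of 0.23 over the members and -0.01 over all genes. After correction Bbc3 was past 2-fold against the 2D co-culture but not against the 2D monoculture. These comparisons share the spheroid library. Fibroblast markers summed to 36.5 CPM in the spheroid and 679 in 2D co-culture, and their part in these values was not tested.

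For the effect of fibroblasts in 2D, the co-culture was set against the monoculture. None of 9 members passed 2-fold in either direction, beside 3.79% of all genes higher and 9.51% lower, and the median log2 ratio was -0.05 over the members and 0.01 over all genes. The members nearest to the threshold were Bcl2 at -0.77 and Bbc3 at -0.55, on the log2 scale with 1 CPM added. Fibroblast markers were higher in 2D co-culture, 679 against 17.6 CPM, and their part in these values was not tested.

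For the tumor, 3 of 9 members fell below the 2D monoculture (Bcl2l1, Bak1 and Bbc3) and 0 exceeded it, beside 14.8% of all genes higher and 18.2% lower. The median log2 ratio was -0.75 over the members and -0.14 over all genes. With the correction 1 member was higher (Bcl2l11) and 1 lower (Bbc3), beside 15.9% and 6.03% of all genes, and Bcl2l1 stood at -0.86 and Bak1 at -0.53. The spheroid exceeded the tumor in 4 of 9 members (Bcl2l1, Bax, Bak1 and Bbc3) and fell below it in 0, beside 26.8% of all genes higher and 27.6% lower, with medians of 0.49 and 0.08. Likewise the 2D co-culture exceeded the tumor in the same 4 members and fell below it in 0, beside 18.8% and 20.9% of all genes, with medians of 0.57 and 0.11. With the correction, 2 of 9 members were higher in the spheroid than in the tumor (Bcl2 at 1.09 and Bbc3 at 2.48), beside 17.0% of all genes higher and 22.0% lower. In 2D co-culture 1 was higher than in the tumor (Bbc3 at 1.38), beside 8.66% and 19.2%. All 3 comparisons share the tumor library. When libraries were scaled by total counts, the split over all genes became 18.5% higher and 12.4% lower for tumor against 2D monoculture, 19.4% and 33.5% for spheroid against tumor, and 12.1% and 25.0% for 2D co-culture against tumor. The median over all genes then went from 0.08 to -0.25 for spheroid against tumor, and 2, 3 and 2 members passed 2-fold in these comparisons, in the same directions as before.

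**Figure D3:**
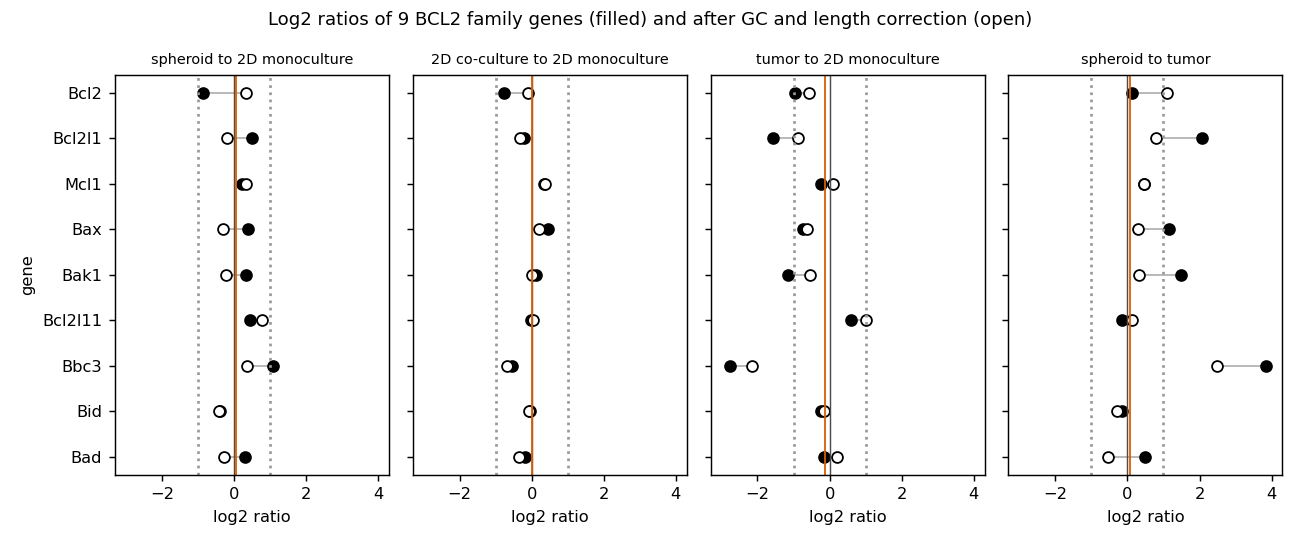
Log2 ratios, with 1 CPM added, of the 9 BCL2 family genes that passed the filter in 4 comparisons, before (filled) and after (open) correction for GC content and length. Dotted lines mark 2-fold and the orange line the median of all genes. Bbc3 lay farthest from 0 in both comparisons with the tumor, at 3.85 for spheroid to tumor (2.48 corrected), and Bcl2 in the spheroid against the 2D monoculture changed sign on correction, from -0.86 to 0.34.

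The rest of the BCL2 family, 16 further genes of which 10 passed the filter, was mixed. Against the 2D monoculture, 5 of 10 were higher in the tumor and 0 lower, beside 14.8% and 18.2% of all genes. After correction 4 were higher and 0 lower, beside 15.9% and 6.03% of all genes. Bcl2a1b and Bcl2a1d reached the filter through the tumor library alone, so their calls were fixed by it. Without them, a choice made after seeing the data, 3 of 8 were higher and 0 lower, and the median log2 ratio went from 0.54 to -0.06. Bnip3, whose hypoxia-induced protein takes part in the removal of mitochondria, had 233 CPM in the spheroid, 130 in 2D co-culture, 110 in 2D monoculture and 500 in the tumor, and its relative Bnip3l had 63.8, 52.1, 80.7 and 166 in the same order. Bok, a further pore former, reached 11.6 CPM in the tumor and 3.53 to 5.24 in the cultures. Bcl2a1b, a guardian gene best known from blood cells, had 13.2 CPM in the tumor and 3 reads or fewer in each culture. Bcl2a1d had 4.73 CPM in the tumor and at most 1 read in a culture. The Bcl2a1 copies are near-identical, so their reads may be split between them, and the myeloid markers were higher in the tumor too. Bmf, a BH3-only gene tied to loss of attachment, had 23.6 CPM in the spheroid, 5.41 in 2D co-culture, 12.7 in 2D monoculture and 13.1 in the tumor, the only gene of this list past 2-fold between spheroid and 2D co-culture. Hrk had 0 reads in every library.

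Of the transcription factors known to drive BH3-only genes, 8 of 9 passed the filter. Spheroid against 2D monoculture gave 3 higher and 0 lower, beside 11.2% and 17.9% of all genes, with a median log2 ratio of 0.74, and tumor against 2D monoculture 0 higher and 4 lower, beside 14.8% and 18.2%, with a median of -1.21. Spheroid against tumor gave 7 higher and 0 lower, beside 26.8% and 27.6% of all genes, and 2D co-culture against tumor 8 and 0, beside 18.8% and 20.9%. After correction these counts were 3 and 0, 0 and 2, 6 and 0, and 5 and 0. The corrected shares of all genes were 9.10% higher and 11.6% lower, 15.9% and 6.03%, 17.0% and 22.0%, and 8.66% and 19.2%. Spheroid against 2D co-culture gave 2 higher and 1 lower, beside 9.54% and 8.46% of all genes. After correction it gave 1 and 2, beside 7.21% and 6.73%. In 2D co-culture against 2D monoculture 1 was higher and 0 lower, beside 3.79% and 9.51% of all genes. The median was 0.60. After correction the counts were again 1 and 0, beside 4.09% and 7.02%, with a median of 0.63. Ddit3, which encodes CHOP, had 499 CPM in the spheroid, 141 in 2D co-culture, 168 in 2D monoculture and 58.9 in the tumor, and Atf4 had 2713, 1229, 671 and 407 in the same order. Trp53, which encodes p53, had 252 CPM in the spheroid, 232 in 2D co-culture, 160 in 2D monoculture and 47.4 in the tumor. In the same order Jun had 451, 316, 200 and 64.4, and Foxo1 had 41.5, 28.9, 24.7 and 12.6. In all of these the spheroid was highest and the tumor lowest. Myc ran otherwise, with 153 CPM in 2D co-culture against 73.7 in the spheroid, 43.3 in 2D monoculture and 40.6 in the tumor. E2f1 was also highest in 2D co-culture, and Foxo3 in 2D monoculture. Whether any of these genes bears on Bbc3 was not tested. After correction the list's median was 0.56 for spheroid against 2D monoculture and -0.52 for tumor against 2D monoculture.

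Of the inhibitor of apoptosis genes, whose proteins restrain caspases, 0 of 6 were higher and 5 lower in the spheroid than in the tumor. Over all genes the shares were 26.8% and 27.6%. The median log2 ratio of the list was -2.25. After correction it was -1.29, with 4 genes lower, beside 22.0% of all genes. Birc3 reached the filter through the tumor library alone. Without it, 4 of 5 were lower and the median was -1.98. Against the 2D monoculture, 3 of 6 were lower in the spheroid, beside 17.9% of all genes, and 2 after correction, beside 11.6%. The 2D co-culture gave like counts. Against the tumor 0 of 6 were higher and 5 lower in it, beside 18.8% and 20.9% of all genes, with a median of -1.96. After correction 4 were lower, beside 19.2% of all genes, and the median was -1.50. Against the 2D monoculture 1 was higher and 3 lower in 2D co-culture, beside 3.79% and 9.51% of all genes. After correction these were 1 and 2, beside 4.09% and 7.02%. Xiap, the direct caspase inhibitor, had 19.1 CPM in the spheroid, 35.2 in 2D co-culture, 44.4 in 2D monoculture and 78.5 in the tumor. Birc6 had 15.5, 24.4, 127 and 93.8 CPM in the same order, from a transcript of 15768 bases. Birc3 stood at 13.7 CPM in the tumor and at most 0.114 CPM in the cultures. Xiap was thus lowest in the spheroid, and Birc3 was found almost entirely in the tumor library.

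Downstream of the pore, the 11 genes of cytochrome c, the apoptosome and the caspases were mixed. In the spheroid against the 2D monoculture 1 was higher and 2 lower, near the 11.2% and 17.9% of all genes. After correction 0 were higher and 0 lower, beside 9.10% and 11.6% of all genes. Htra2, a mitochondrial protease released with cytochrome c, had 343 CPM in the spheroid, 244 in 2D co-culture, 143 in 2D monoculture and 49.8 in the tumor. Apaf1, the scaffold of the apoptosome, was highest in 2D monoculture at 80.6 CPM, against 31.1 in the spheroid, 46.0 in 2D co-culture and 46.7 in the tumor. Before correction, the outer membrane channels Vdac1, Vdac2 and Vdac3 passed 2-fold in none of the 6 comparisons. After correction 1 of 3 was higher in the spheroid than in 2D monoculture, beside 9.10% of all genes. Likewise 1 of 3 was then higher in the spheroid than in the tumor, beside 17.0% of all genes.

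Upstream of Bid, the 8 genes of the death receptor arm gave 0 higher and 2 lower in the spheroid against the 2D monoculture (Casp8 and Ripk1), beside 11.2% and 17.9% of all genes, and 4 higher and 3 lower in the spheroid against the tumor, beside 26.8% and 27.6%. After correction these counts were 0 and 2, beside 9.10% and 11.6% of all genes, and 1 and 2, beside 17.0% and 22.0%. Fas reached the filter through the tumor library alone, and without it the second count was 4 higher and 2 lower of 7. Fas, a death receptor, had 4.95 CPM in the tumor and at most 0.358 CPM in the cultures, while Tnfrsf10b, the receptor for TRAIL, had 36.9 CPM in the spheroid, 20.3 in 2D co-culture, 38.7 in 2D monoculture and 8.94 in the tumor. Of the 8 genes for MCL1 turnover and BAD kinases, 1 was higher and 3 lower in the spheroid than in 2D monoculture. Over all genes the shares were 11.2% and 17.9%. After correction 0 were higher and 2 lower, beside 9.10% and 11.6% of all genes. Huwe1, an MCL1 ubiquitin ligase, had 31.9 CPM in the spheroid, 61.1 in 2D co-culture, 241 in 2D monoculture and 91.0 in the tumor, and Usp9x, which removes ubiquitin from MCL1, had 33.4, 36.4, 162 and 139. The ligase and its opponent were thus both low in the 2 cultures with fibroblasts, and both have long transcripts, 14579 and 11887 bases. Pim1, a kinase of BAD, was highest in the spheroid at 40.5 CPM, against 18.0 in 2D co-culture, 11.7 in 2D monoculture and 16.2 in the tumor.

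**Figure D4:**
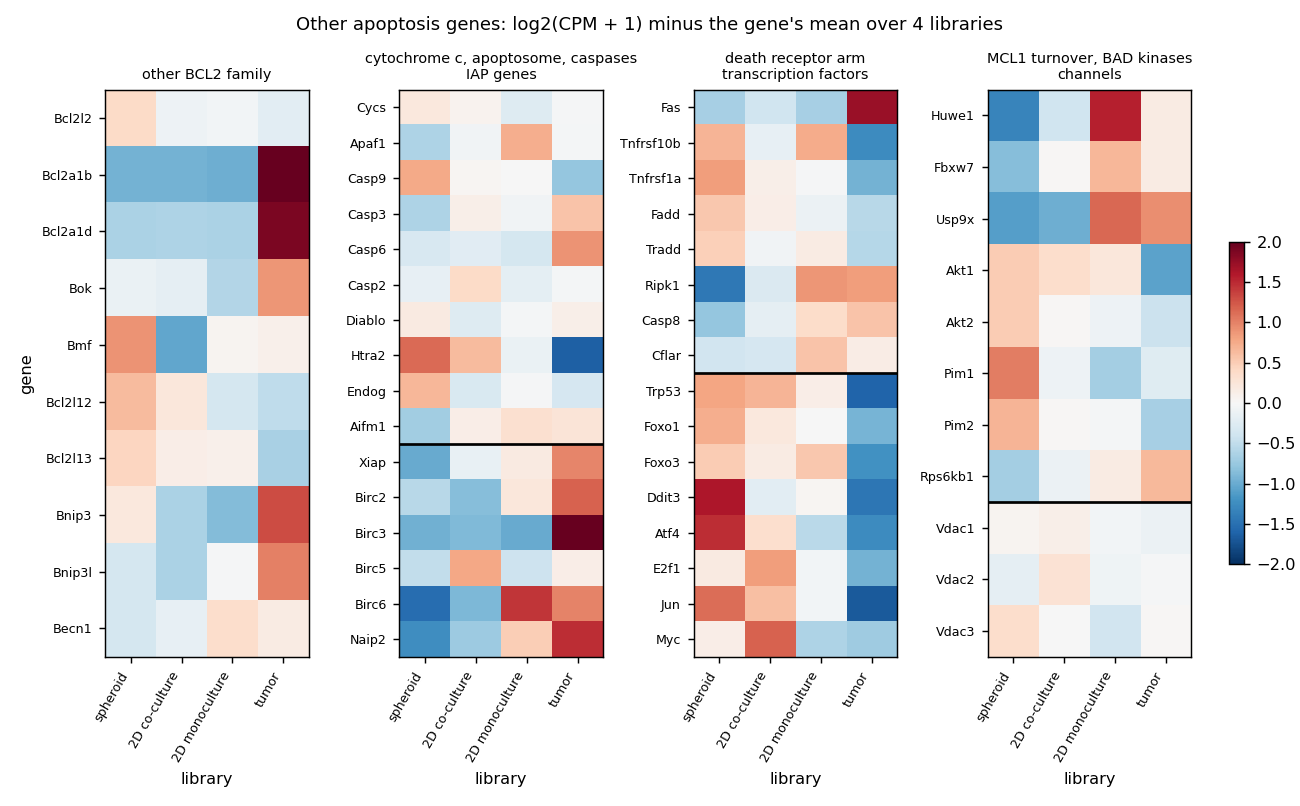
Log2(CPM + 1) of other apoptosis genes that passed the filter (1 is not shown), minus each gene's mean over the 4 libraries, in panels by list (colour scale limited to 2 in either direction). The transcription factor block is red in the spheroid for Ddit3, Atf4, Jun, Trp53 and Foxo1 and blue in the tumor. The inhibitor of apoptosis block is blue in the spheroid.

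The profile of Bbc3, the widest in range of the 9 members that passed the filter, was compared with those of the other genes that averaged 10 CPM or more, by Euclidean distance between centred log2 CPM over the 4 libraries. The 5 most alike were Fam219a at a distance of 0.132, Trnp1 at 0.161, Plcd3 at 0.239, Ticam1 at 0.276 and Fam219aos at 0.311, and 19 genes of 9571 lay within 0.5. Fam219a, the nearest, had 221 CPM in the spheroid, 64.2 in 2D co-culture, 105 in 2D monoculture and 12.1 in the tumor. Fam219aos is named as antisense to Fam219a, so without known strand handling their reads cannot be told apart. With 4 libraries, a like profile is a description of these libraries only.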

How the data were processed

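The authors deposited 1 table of whole-number read counts per gene symbol, with no normalization, for 4 libraries (poly(A)-selected, paired-end Illumina reads). The submitters' processing notes name Trimmomatic, STAR, featureCounts and mm10, without versions; the strand setting is not given in the sources used here. Depth was 118896900 to 150028663 counts per library.

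Deposited counts were scaled to CPM by TMM (edgeR 4.0.16, R 4.3.3). DESeq2 1.42.0 size factors, total counts, upper quartiles and pairwise TMM were alternatives. Other steps used Python 3.11.15, pandas 2.3.3 and scipy 1.17.1. Intervals are exact Clopper-Pearson intervals at 95%. Calls, medians and lists used 1 CPM added, genes averaging 1 CPM or more and a 2-fold threshold, and log2 ratios of single members had nothing added unless stated. GC content and length came from GENCODE M21 (GRCm38, the assembly of mm10), with a value for 97.9% of tested genes, in 10 by 10 classes. The functions for calls, intervals and the correction were tested on simulated data.

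Named genes were all 10 members, listed genes past 2-fold or needed for a statement, the 5 genes most like the member of widest range among those past the filter, and 3 promoters. Members and lists were chosen with earlier results of these data known. Corrected list counts, and list counts without genes that reach the filter through 1 library alone, were added after seeing the data. With 1 library per source there was no test. Protein sequences were not used here, and 1 listed gene is not reported here.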

Additional observations from a re-analysis of the deposited data

How the results depend on the processing

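The number of members past 2-fold depended on the threshold and on the scaling where a ratio lay near it. For spheroid against 2D monoculture the 1 call became 0 with total counts, with TMM factors of the pair alone, at 4-fold and with the GC and length correction. At 1.5-fold 1 member was higher and 1 lower, beside 25.9% and 27.1% of all genes. For 2D co-culture against 2D monoculture the count of 0 became 1 at 1.5-fold, a member that was lower, beside 19.3% of all genes lower. For spheroid against 2D co-culture the 1 call became 0 at 4-fold and 2 at 1.5-fold, both higher, beside 20.0% of all genes higher. For tumor against 2D monoculture the 3 calls became 2 with total counts, 2 with upper quartile factors and 2 with the correction, of which 1 was higher. At 1.5-fold they became 6, with 1 higher and 5 lower, beside 23.0% and 32.3% of all genes. At 4-fold 1 remained, which was lower, beside 2.28% of all genes lower. For spheroid against tumor the 4 calls became 2 with the correction and 2 at 4-fold, both higher, beside 7.73% of all genes higher at 4-fold. For 2D co-culture against tumor the 4 became 2 with total counts, 1 with the correction and 1 at 4-fold, beside 1.85% of all genes higher at 4-fold. At 1.5-fold 4 members were higher and 1 lower, beside 32.4% and 28.2% of all genes. The members' median log2 ratio changed sign for spheroid against 2D monoculture with the correction (-0.20) and for 2D co-culture against 2D monoculture with upper quartile factors (0.066). The balance of Bcl2l11 and Bbc3 to the guardians, 2D co-culture against tumor, changed sign with 5 CPM added (-0.035) and with the correction (-0.21). The same balance kept its sign with the correction in the other 5 comparisons, at 0.42 instead of 0.84 for spheroid against 2D monoculture and 0.53 instead of 1.06 for spheroid against tumor. The cause of these changes was not tested. Of 54 member ratios, 13 had the other sign after the correction, 5 with total counts, 5 with upper quartile factors and 1 with DESeq2 factors. No paired analysis was possible because each source has 1 library, and for the same reason no library could be left out. Depth limits only Pmaip1, with 0 reads in the cultures.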
